A study of Phyllostachys edulis with 2 samples.

Results

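Cells rich in PH02Gene04325, a gene that the study paired with a class III peroxidase of Arabidopsis (AT4G11290) and used as a marker of its initial cells, made up 276 of the 15304 kept cells of moso bamboo (Phyllostachys edulis) basal root tips. A kept cell had more than 500 genes. A cell was a member if it held at least 4 UMIs and at least 400 CPM of PH02Gene04325 together with at least 2000 CPM of PH02Gene38077, a germin-like protein gene. A UMI (unique molecular identifier) stands for 1 captured transcript, and CPM are UMIs of a gene per 1000000 UMIs of the cell or of the summed cells. The cells were thus selected on the levels of PH02Gene04325 and PH02Gene38077, which are given below only as a description. Protoplasts were released from tips of about 2 cm by 3 h of enzyme digestion, came from material labelled as 6 to 8 weeks old, and were captured as 2 biological replicates, each in a droplet library of its own. No treated, mutant or control plants were sequenced, so every comparison is between cells of the same libraries. Values are given for replicate 1 and then replicate 2.

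Root initials are dividing cells at the tip whose daughters form the root cap on one side and the tissues of the root body on the other. Class III peroxidases are secreted heme enzymes that use hydrogen peroxide to oxidise phenolic compounds in the wall, where their products include lignin and cross-linked ferulates. Phenylalanine ammonia-lyase (PAL) opens the phenylpropanoid pathway that supplies such phenolics, and germin-like proteins are wall proteins, some of which release hydrogen peroxide.

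The study probed 2 marker transcripts of its initial cells in root sections by in situ hybridisation, and the probes are shown because they give the only sequence used here for PH02Gene04325, the gene that defines the cells, and for the PAL gene PH02Gene30509. The study reported signal of both genes where the stem cells of the columella root cap meet the initials of the epidermis. It called this evidence preliminary. Inferred paths of cells also led the study to place its initial cells first. The PH02Gene30509 probe has 92 bases and the PH02Gene04325 probe has 96 bases. Each is antisense and written 5′ to 3′, and the capitals mark the complement of the first ATG of the sense strand. That ATG begins at base 1 of the sense strand for PH02Gene30509 and at base 13 for PH02Gene04325. The capitals give a position only, and whether either ATG is a start codon was not tested.
PH02Gene30509: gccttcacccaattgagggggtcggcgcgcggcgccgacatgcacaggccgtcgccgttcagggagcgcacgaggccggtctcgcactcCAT
PH02Gene04325: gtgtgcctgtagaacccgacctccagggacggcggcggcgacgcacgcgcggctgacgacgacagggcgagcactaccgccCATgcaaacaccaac
G and C made up 70.7% of the PH02Gene30509 probe and 68.8% of the PH02Gene04325 probe.

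Replicate 1 contributed 155 PH02Gene04325-rich cells, 2.03% of its 7653 kept cells (95% exact binomial interval 1.72 to 2.37%), and replicate 2 contributed 121, 1.58% of its 7651 kept cells (1.31 to 1.89%). These intervals cover counting error only. PH02Gene04325 had a median of 977 and 799 CPM per member cell, and PH02Gene38077 had 4065 and 4460 CPM. The members just inside the threshold of PH02Gene04325 had 407 and 404 CPM, and the cells just outside it, which met the other conditions, had up to 399 and 395 CPM. For PH02Gene38077 the lowest members had 2001 and 2019 CPM, and 104 and 114 cells failed on this gene alone, with up to 1944 and 1990 CPM. Of the members, 19 and 11 held exactly 4 UMIs of PH02Gene04325, and 24 and 21 further cells were 1 UMI short. The edge of the group is therefore a cut through a range of levels and not a gap.

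PH02Gene04325-rich cells were set against the 6830 other kept cells that had at least 4000 UMIs, 3279 in replicate 1 and 3551 in replicate 2. The members had a median of 8987 and 11663 UMIs per cell, against 7917 and 8697 UMIs in the other cells, and 11 and 2 members had under 4000 UMIs. Their summed UMIs came to 1492088 and 1530868. After thinning to 4000 UMIs, the median member cell had 1938.5 and 1953 genes and the median other cell 2056 genes and 2062 genes. The libraries shared 15 barcodes, none of them a member's. Doublets were not removed and no caller was run, so a member may be a doublet.

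Part of the other cells was also divided by gates on single genes that the study had picked, each cell passing 1 gate only. The germin-only cells (372 and 351) had at least 2000 CPM of PH02Gene38077 and thus share a gate with the members. The transition-gate cells (786 and 820) held at least 4 UMIs and 800 CPM of PH02Gene11309, a BTB/POZ and TAZ domain gene. The study picked this gene as one that rises along its path from initial to root cap cells. Of the study's transition markers, PH02Gene02039 stood at 1018 and 1081 CPM in these cells, against 1251 and 1562 CPM in members. PH02Gene10382 stood at 345 and 314 CPM, against 428 and 299.8 CPM, so these markers do not set the gated cells apart from the members. The root-cap-gate cells (63 and 81) held at least 4 UMIs and 400 CPM of PH02Gene15627, and the epidermis-gate cells (225 and 314) held at least 4 UMIs and 800 CPM of PH02Gene14566. The remaining 1833 and 1985 cells passed no gate or more than 1. Apart from the germin-only cells, each gated group therefore held only cells under 2000 CPM of PH02Gene38077, a gene of the rule.

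Both PAL markers that the rule did not use were high in PH02Gene04325-rich cells. PH02Gene30511 stood at 1321 and 1086 CPM in the members, against 262 and 236 CPM in the other cells, and was higher by 2.57 ± 0.11 on the log2 scale (SE, edgeR, adjusted p = 2.0e-12). PH02Gene30509 stood at 1328 and 1184 CPM in the members, against 582 and 550.3 CPM, a difference of 1.45 ± 0.10 (adjusted p = 8.4e-10). In both genes the members' replicates lay above both replicates of every other group, including the germin-only cells (530.4 and 479.5 CPM of PH02Gene30511, and 912 and 797 CPM of PH02Gene30509). The study chose these markers on the same libraries, so their direction is not independent evidence for the name of the cells.

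At equal depth the PAL markers were also found in more member cells. After thinning to 4000 UMIs, PH02Gene30511 had at least 1 UMI in 84.7% and 81.5% of members, against 35.7% and 34.1% of the other cells (95.1% and 91.6% against 46.2% and 48.0% before thinning). In cells with at least 1000 CPM of the ground tissue marker PH02Gene45651, taken as a measure of background, it was 20.1% and 20.2%, in 254 and 238 cells with a median of 7071 and 7596.5 UMIs before thinning. The member cells so compared had a median of 9923.5 and 12268 UMIs. PH02Gene30509 was found in 96.5% and 96.6% of members, 76.7% and 74.0% of the other cells and 69.3% and 72.3% of the background cells, so that it was seen in most cells of each group and in a higher share of the members.

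**Figure D1:**
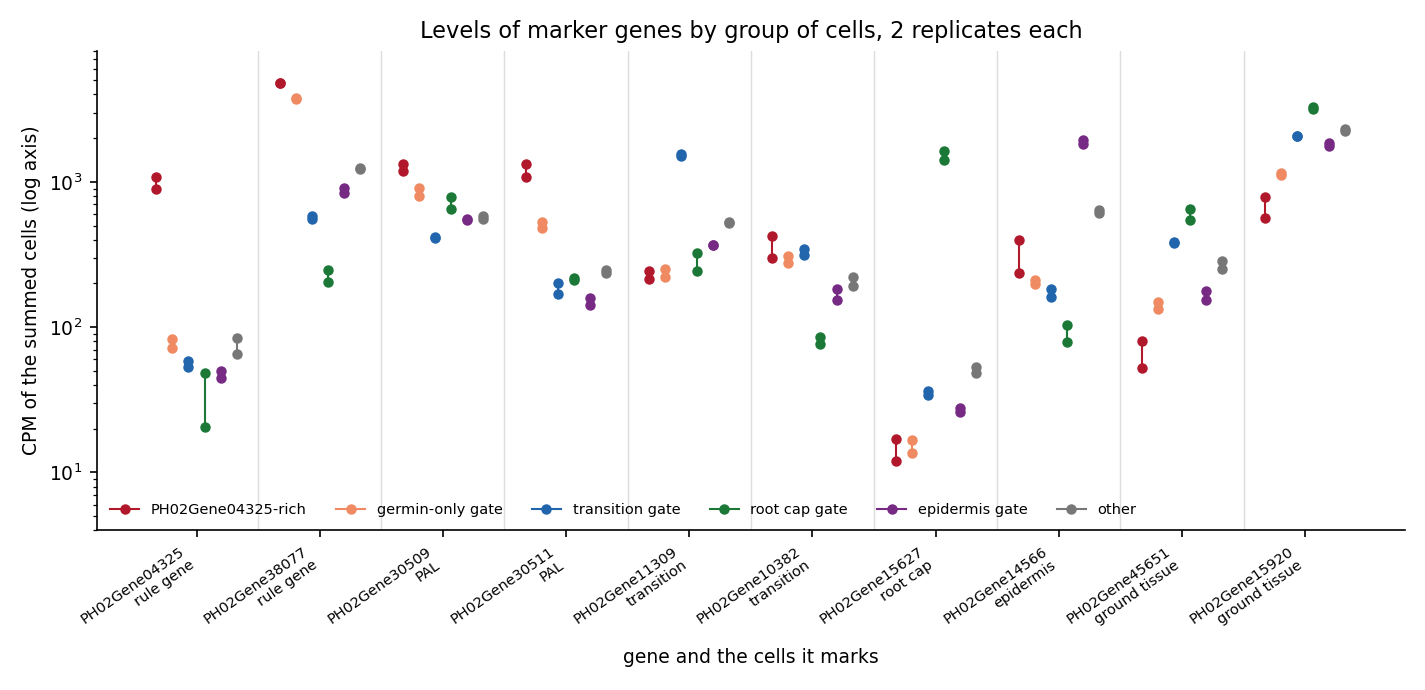
CPM (log axis) of marker genes in the summed cells of 6 groups, with 1 point per replicate and a line joining the 2 replicates. PH02Gene04325 and PH02Gene38077 chose the cells. Both PAL genes are highest in the PH02Gene04325-rich cells, and PH02Gene45651 of the ground tissue is lowest there.

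The label "initial" was then checked against genes known from Arabidopsis root meristems. None of 10 tested orthologs of root meristem regulators was higher in PH02Gene04325-rich cells and 2 were lower, while 5.98% of the 24312 genes tested were higher and 9.95% were lower. A gene is called higher or lower if its adjusted p was under 0.05 and its difference at least 2-fold. PH02Gene42801, an ortholog of PLT1, an AP2-type factor that maintains the Arabidopsis root stem cell niche, stood at 2.01 and 2.61 CPM in members, against 15.98 and 15.69 CPM in the other cells (log2 difference −2.48 ± 0.39, adjusted p = 5.0e-05). PH02Gene11863, an ortholog of HSFB4 (SCHIZORIZA), which acts in asymmetric divisions of Arabidopsis root initials, fell by 1.49 ± 0.19 (adjusted p = 4.1e-06). An ortholog of BBM, PH02Gene27330, had 57.6 and 51.0 CPM in members and 76.6 and 71.1 CPM in the other cells and was not called. Orthologs of SCR and PAN were not called either. A further pair, orthologs of BBM and AIL6 (PH02Gene22504 and PH02Gene06628), had 0 UMIs in members and 26 and 3 UMIs in all the other cells, levels too low for a difference to be detectable. The orthologs of these regulators therefore do not set the cells apart as initials. The study found most orthologs of Arabidopsis and rice root markers poorly detected or not specific to a cell type in these roots. This check therefore cannot decide whether the cells are initials, and they are called here by PH02Gene04325.

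Of the listed genes of DNA packaging and protein synthesis none was higher in PH02Gene04325-rich cells. A histone H3 gene, PH02Gene24787, had 0 UMIs in members, against 557 UMIs or 8.83 CPM in the other cells. With a floor of 3 UMIs over the group, it was at least 8.90-fold lower in members. This bound does not allow for UMIs gathered in few cells, and the gene was seen in only 2.87% and 4.22% of the other cells before thinning. PH02Gene17224, another H3 gene, stood at 10.1 and 17.6 CPM in members and 33.0 and 36.3 CPM in the other cells (log2 difference −1.03 ± 0.23, adjusted p = 1.8e-03). Both H3 genes were also lower than in the other deep cells of cluster 6, the cluster by overall expression that held most members. Clusters were numbered here and not by the study. In this comparison 2.49% of all genes were higher and 3.78% lower. The histone H2A gene PH02Gene08689 was not called (642 and 698 CPM in members, 907 and 941 CPM in the other cells). Of 4 ribosomal protein genes, PH02Gene06911 (L15) and PH02Gene29817 (L5) fell, by 1.81 ± 0.13 and by 1.22 ± 0.11, and the other 2 were not called. All 4 were lower under scaling by library size alone, under a stricter gate and with thinned cells, and none was called within the cluster. PH02Gene06911 and PH02Gene29817 were also markers of a cluster that the study left undefined. The study chose them on these libraries, so their fall is not independent evidence on protein synthesis.

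Across all genes, 1453 were higher and 2418 lower in PH02Gene04325-rich cells than in the other cells, so that 37.5% of the calls were higher. The median log2 difference over all genes was −0.17. This scale rests on TMM, which sets the bulk of genes level. The 50 most abundant genes took 17.1% and 16.8% of the members' UMIs, against 13.3% and 13.5% of the other cells'. With library size alone as the scale, the median of all genes moved by −0.30, 783 genes were higher and 3909 lower, and 16.7% of the calls were higher. The p-values compare each difference with the spread between 2 libraries, which need not represent the spread between plants.

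Among genes with a description, a family or an ortholog in the study's tables, the largest differences included several regulators and kinases. PH02Gene10506, a NAC transcription factor gene, had 62.3 and 61.4 CPM in PH02Gene04325-rich cells, against 8.93 and 10.2 CPM in the other cells (log2 difference 2.98 ± 0.16, adjusted p = 2.2e-11). PH02Gene40152, a WAK-type receptor kinase of the wall, and PH02Gene29327, a receptor-like cytoplasmic kinase of family XIII, were higher by 2.55 ± 0.14 and by 2.37 ± 0.13. PH02Gene13428, an ortholog of MYB36, which in Arabidopsis directs endodermal differentiation and the lignified Casparian strip, stood at 236 and 209.7 CPM in members, against 66.1 and 60.4 CPM (2.11 ± 0.11). PH02Gene02152 (LURP-one-related 6), PH02Gene34640 (ULT family), PH02Gene30127 (GARP-G2-like family) and PH02Gene31633 (bZIP family) rose by 2.48, 2.39, 2.25 and 2.08.

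Enzyme genes were also among the largest differences. Ornithine decarboxylase (PH02Gene43042), which makes the polyamine putrescine, had 1074 and 1004 CPM in members and 304 and 278 CPM in the other cells (log2 difference 2.13 ± 0.10). PH02Gene25494, related to REDUCED WALL ACETYLATION 3, a gene of polysaccharide acetylation in Arabidopsis, rose by 2.19 ± 0.11, and PH02Gene50391, described as a bisdemethoxycurcumin synthase-like type III polyketide synthase, rose by 2.09 ± 0.10. The nudix hydrolase gene PH02Gene43520 had 1023 and 681 CPM in members and 207 and 206 CPM in the other cells, and its replicates differed more than those of the other enzymes named here. The largest differences of all with at least 50 CPM were in genes without a description. PH02Gene23361 had 94.5 and 120.2 CPM in members against 12.02 and 11.44 CPM (3.49 ± 0.14), and PH02Gene17043 had 76.4 and 79.0 CPM against 9.46 and 8.22 CPM (3.43 ± 0.15).

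**Figure D2:**
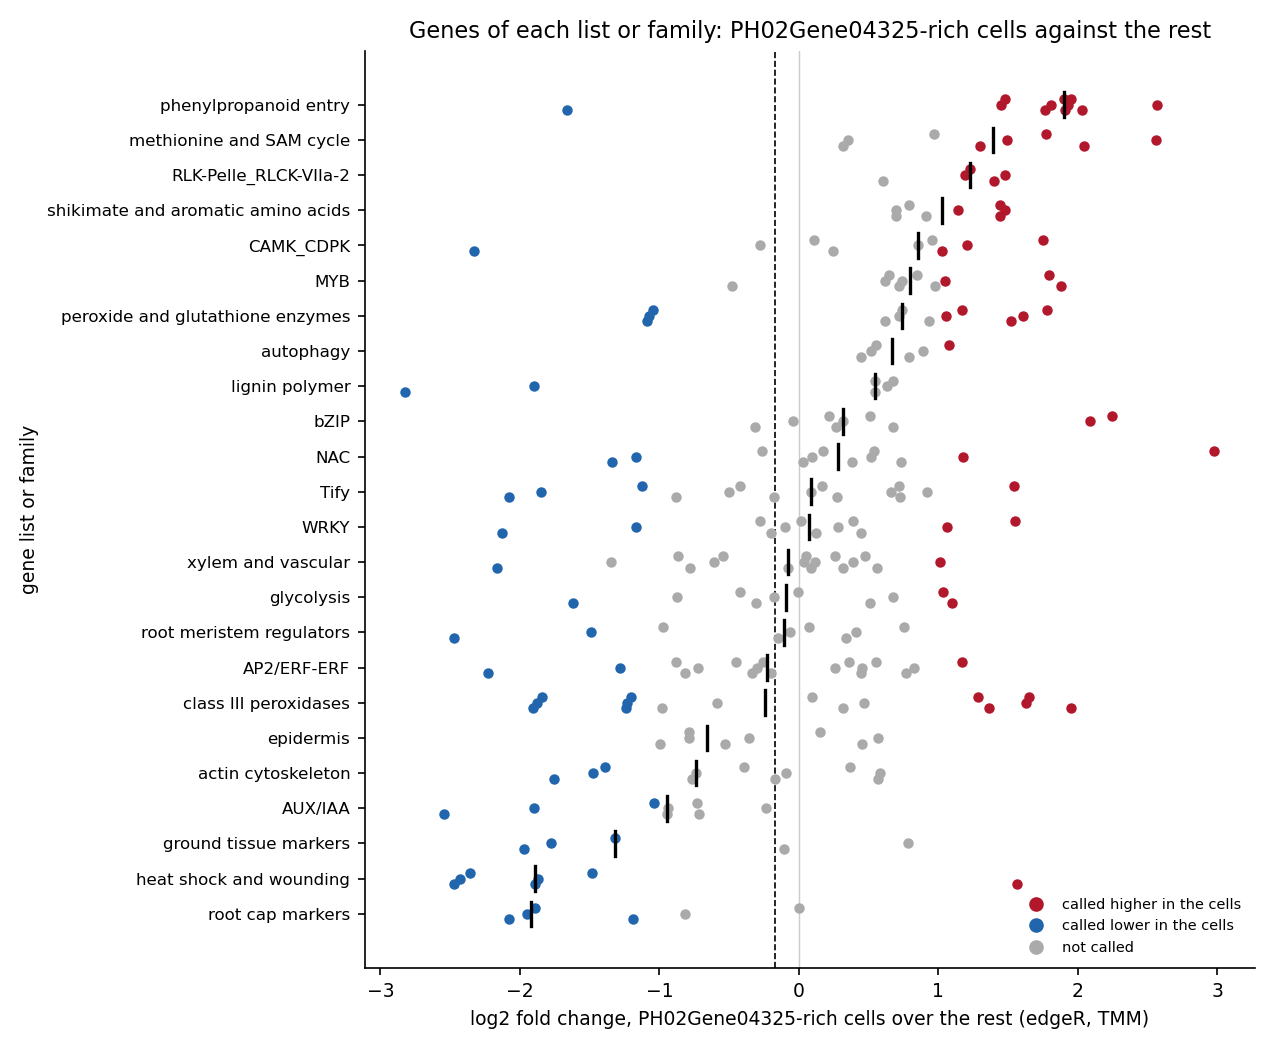
Log2 fold change (edgeR with TMM) of each gene of a list or family, PH02Gene04325-rich cells over the other cells. Each point is 1 gene with more than 3 UMIs in members (red called higher, blue called lower, grey not called), the black bars are list medians and the dashed line is the median of all genes, −0.17. Lists run by median, with phenylpropanoid entry at the top and root cap markers at the bottom.

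The list of phenylpropanoid entry, which also holds later enzymes, was the list with the highest median. Of its 11 genes, 10 were higher in PH02Gene04325-rich cells and 1 was lower, with a median log2 difference of 1.90, against −0.17 over all genes. Over all genes tested 5.98% were higher and 9.95% lower. Summed over the list the level was 5860 and 5370 CPM in members and 1950 and 1909 CPM in the other cells. All 6 PAL genes rose, from 1.45 to 2.57. The ends of this range are PH02Gene30509 and PH02Gene30511, which the study chose as markers on these libraries. They are therefore not independent evidence within the count. PH02Gene40449 had 217 and 183 CPM in members and 68.5 and 62.3 CPM in the other cells (1.91 ± 0.11), and PH02Gene27012, PH02Gene27013 and PH02Gene27014 rose by 1.93, 2.03 and 1.95. PAL genes are a multigene family, so 3′ reads of close copies may have been shared among them and their separate levels are uncertain.

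Besides PAL the list held 3 cinnamate 4-hydroxylase genes, a caffeoyl-CoA O-methyltransferase gene and a CAD5-like gene, and the steps between these enzymes were not listed. Cinnamate 4-hydroxylase, which adds the first hydroxyl group after PAL, was higher in all 3 genes listed. PH02Gene03697 had 231 and 210.3 CPM in members and 75.4 and 78.8 CPM in the other cells (1.81 ± 0.11), PH02Gene46974 rose by 1.76 and PH02Gene44264 by 1.48. Caffeoyl-CoA O-methyltransferase (PH02Gene12695), which methylates the precursor of ferulate and guaiacyl lignin with S-adenosylmethionine as donor, had 2206 and 2235 CPM in members, against 715 and 744 CPM (1.90 ± 0.10, adjusted p = 1.1e-11). It was found in 97.9% and 99.2% of thinned member cells, against 76.3% and 79.4% of the other cells and 63.0% and 63.9% of the background cells. The exception was PH02Gene47921, similar to CAD5, a cinnamyl alcohol dehydrogenase of monolignol synthesis, which had 14.1 and 18.9 CPM in members and 59.8 and 68.1 CPM in the other cells and fell by 1.66 ± 0.20. The counts of 10 and 1 were the same with library size as the scale, with thinned cells, under a stricter gate and with DESeq2.

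Of 6 genes of lignin polymerisation none was called higher and 2 were called lower, with a median of 0.55 and an adjusted p under 0.05 in all 6. The share of all genes under that p is not given here. The laccase gene PH02Gene01024, whose product oxidises monolignols, had 2856 and 2902 CPM in members and 2343 and 2216 CPM in the other cells (0.63 ± 0.10, adjusted p = 2.8e-05). All 4 laccase-9-like genes were higher in members by less than 2-fold, from 0.55 to 0.67, and 2 of them kept an adjusted p under 0.05 with library size as the scale. The difference between this list and the phenylpropanoid list was not tested. Dirigent proteins guide the coupling of phenolic radicals, and both dirigent 19 genes were lower. PH02Gene15809 had 6.03 and 7.84 CPM in members, against 53.4 and 66.8 CPM in the other cells (−2.82 ± 0.28), and PH02Gene15808 fell by 1.90 ± 0.18. Neither dirigent gene was called within the members' own cluster (−0.37 and −0.03).

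**Figure D3:**
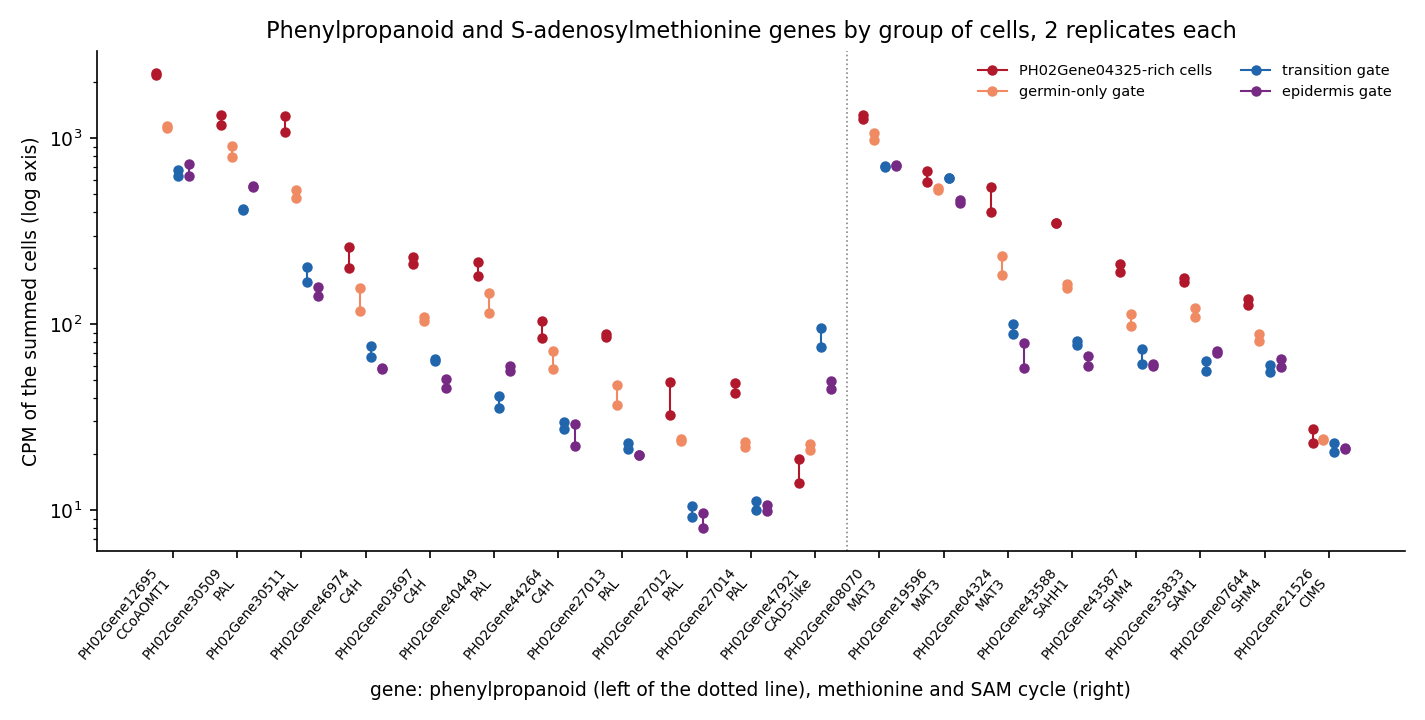
CPM (log axis) of the phenylpropanoid entry genes, left of the dotted line, and of the genes of the methionine and S-adenosylmethionine (SAM) cycle, right of it, in the summed cells of 4 groups, with 1 point per replicate. PH02Gene04325-rich cells are highest in each phenylpropanoid gene but PH02Gene47921, where they had 14.1 and 18.9 CPM.

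The cycle that makes and recycles S-adenosylmethionine, the methyl donor of the O-methyltransferases, was also higher in PH02Gene04325-rich cells. Of 8 genes, 5 rose and none fell, with a median of 1.39. PH02Gene04324, an ortholog of the S-adenosylmethionine synthetase gene MAT3, had 546 and 403 CPM in members and 99.4 and 97.8 CPM in the other cells (2.56 ± 0.12, adjusted p = 4.9e-12). Its identifier is next to that of PH02Gene04325, and no annotation was used here to place the genes. PH02Gene43588, an ortholog of SAHH1, which removes the inhibitory product of methylation, had 352 and 350.1 CPM in members and 107 and 102 CPM in the other cells (2.04 ± 0.10). Orthologs of SHM4, a serine hydroxymethyltransferase that feeds one-carbon units, rose by 1.77 and 1.30, and an ortholog of SAM1 rose by 1.49 ± 0.11. PH02Gene08070, another MAT3 ortholog, had 1278 and 1333 CPM in members and 833 and 806 CPM in the other cells, just under the 2-fold threshold at 0.97. With library size as the scale 4 of the 8 were higher.

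Synthesis of aromatic amino acids, which include tryptophan and the phenylalanine that PAL uses, was higher in 4 of 8 genes, with none lower and a median of 1.03. Both orthologs of AT1G22410, a DAHP synthase that opens the shikimate pathway, rose. PH02Gene27922 had 249 and 227 CPM in members and 109 and 106 CPM in the other cells (1.44 ± 0.10), and PH02Gene48249 rose by 1.48 ± 0.15. Tryptophan synthase belongs to the tryptophan branch and does not supply PAL. Its beta chain gene PH02Gene10139 had 880.0 and 760.4 CPM in members and 380.1 and 360.4 CPM in the other cells (1.44 ± 0.10), and its alpha chain gene PH02Gene23711 rose by 1.14 ± 0.12. Shikimate kinase 1 (PH02Gene06459) was not called at 1174 and 1068 CPM in members and 864 and 837 CPM in the other cells. Within the members' own cluster none of the 8 was called, although the median was 0.46.

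Class III peroxidases moved in both directions. Apart from PH02Gene04325 itself, 17 genes were listed and 16 tested, of which 5 rose and 6 fell, with a median of −0.24. Their summed level was 5048 and 4649 CPM in PH02Gene04325-rich cells and 2536 and 2455 CPM in the other cells. PH02Gene46530 (peroxidase 5-like) had 2127 and 1864 CPM in members and 664.8 and 600.02 CPM in the other cells (1.95 ± 0.11, adjusted p = 2.1e-11). It was found in 99.3% and 99.2% of thinned member cells, 61.2% and 60.2% of the other cells and 22.0% and 28.2% of the background cells. PH02Gene08066, PH02Gene44580 (peroxidase 2-like), PH02Gene25200 and PH02Gene08065 rose by 1.65, 1.63, 1.36 and 1.28. Examples of those that fell were PH02Gene35834 with 7.37 and 10.5 CPM in members and 37.5 and 44.6 CPM in the other cells (−1.91 ± 0.26) and PH02Gene44955 with 6.70 and 13.1 CPM against 40.4 and 46.5 CPM (−1.84 ± 0.26). Within the members' own cluster 1 was higher and 2 were lower.

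Enzymes that handle peroxide and glutathione conjugates also divided, with 5 of 13 higher and 4 lower and a median of 0.74, or 3 and 4 with library size as the scale. The glutathione S-transferase gene PH02Gene22557, whose family couples glutathione to reactive compounds, had 1968 and 1798 CPM in members and 676 and 668 CPM in the other cells (1.78 ± 0.10). Similar differences were found for PH02Gene28167 (1.52) and PH02Gene34975 (1.17, or 0.87 and no longer called with library size as the scale) of the same family, and the methionine sulfoxide reductase gene PH02Gene46999 rose by 1.61 ± 0.10. Catalase, which breaks down hydrogen peroxide, rose in PH02Gene19703 (138 and 126 CPM in members, 80.9 and 75.4 CPM in the other cells, 1.05 ± 0.11, or 0.75 and no longer called with library size as the scale) and fell in PH02Gene05658 (17.4 and 37.9 CPM in members, 69.1 and 74.2 CPM in the other cells). None of the 13 was called within the cluster. Among germin-like genes not used by the rule, PH02Gene49134 (germin-like 12-2) had 2305 and 2098 CPM in members and 714 and 655 CPM in the other cells (1.98 ± 0.10), while PH02Gene46749 was not called. The study had picked PH02Gene49134 on these libraries as a gene of the branch point between root cap and epidermis.

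Transcription factor families were taken from the study's lists of regulators along its paths from initial to transition cells and on to the root cap or epidermis. The study chose them on these libraries, so the counts are not independent evidence of a direction. Over all 24312 genes tested 5.98% were higher and 9.95% lower, and counts near these shares are no result about a family. MYB factors, some of which control phenylpropanoid genes, had 3 of 10 genes higher in PH02Gene04325-rich cells and none lower. PH02Gene18419 had 109 and 93.4 CPM in members and 34.5 and 32.9 CPM in the other cells (1.88 ± 0.13), and PH02Gene06251 had 105 and 78.4 CPM against 34.4 and 30.3 CPM (1.79 ± 0.14). Among 9 bZIP genes 2 rose and none fell. NAC genes moved both ways (2 of 12 higher and 2 lower, or 1 and 2 with library size as the scale). PH02Gene34765 had 247 and 297 CPM in members and 833 and 855 CPM in the other cells (−1.34 ± 0.11), against the rise of PH02Gene10506 above. WRKY genes had 2 of 12 higher and 2 lower (1 and 2 with library size as the scale), and AP2/ERF genes 1 of 18 higher and 2 lower (none and 5 with library size as the scale).

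Repressors of auxin response were lower in part. AUX/IAA proteins hold auxin response factors in check, and their genes are themselves induced by auxin in Arabidopsis. Of 9 listed genes 4 fell and none rose, while 8 fell with library size as the scale and 7 under a stricter gate. PH02Gene23239 had 6.03 and 10.5 CPM in members and 54.3 and 63.7 CPM in the other cells (−2.54 ± 0.26), and PH02Gene30498 fell by 1.90 ± 0.18. PH02Gene05831, an AUX/IAA gene outside those 9, had 36.9 and 80.3 CPM in members, against 453 and 503 CPM in the other cells (−2.73 ± 0.18, adjusted p = 3.2e-10). Its level differed between the members' replicates, but both lay below every replicate of the other cells. Within the cluster its difference was −0.61, below the 2-fold threshold. The Tify family, which holds the jasmonate repressors, had 1 of 15 genes higher and 3 lower, beside 5.98% and 9.95% of all genes tested. PH02Gene21882 (TIFY 10b) had 1537 and 1306 CPM in members and 595 and 605 CPM in the other cells (1.54 ± 0.11), and PH02Gene27184 had 34.9 and 49.0 CPM in members and 188 and 246 CPM in the other cells (−2.08 ± 0.18).

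Kinases of these lists were higher in part. Receptor-like cytoplasmic kinases of subfamily VIIa-2, several of which carry immune signals in Arabidopsis and rice, had 4 of 5 genes higher and none lower, with a median of 1.23. PH02Gene31141 had 359 and 240.4 CPM in members and 129 and 134 CPM in the other cells (1.48 ± 0.13), and PH02Gene10578, an ortholog of the rice salt tolerance kinase STRK1, had 204 and 161 CPM against 96.9 and 94.5 CPM (1.23 ± 0.12). With library size as the scale 2 of the 5 were higher, and within the cluster none was. Calcium-dependent protein kinases, which act on calcium signals, had 3 of 9 genes higher and 1 lower, or 1 and 1 with library size as the scale. Over all genes tested 5.98% were higher and 9.95% lower. PH02Gene15191 had 213 and 189 CPM in members and 77.4 and 69.0 CPM in the other cells (1.75 ± 0.11).

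Chaperones of the heat response were low in PH02Gene04325-rich cells. All 6 listed heat shock protein genes fell, by between 1.48 and 2.47. The small heat shock protein gene PH02Gene03497 had 22.1 and 28.1 CPM in members and 159 and 174 CPM in the other cells (−2.43 ± 0.16), and the HSC70-like gene PH02Gene26751, a general folding chaperone, had 13.4 and 14.4 CPM against 90.9 and 83.8 CPM (−2.36 ± 0.19). Of these 6, 5 were also lower within the cluster. A wound-induced WIP1-like gene, PH02Gene11536, went the other way with 9070 and 8442 CPM in members and 3592 and 3674 CPM in the other cells (1.56 ± 0.10). All cells went through the same enzyme digestion, and its part in these levels was not tested. Other genes with the most negative differences were PH02Gene01782 (argonaute 2-like, −2.40), PH02Gene42845 (WRKY62-like, −2.43, or −3.13 without replicate 2), PH02Gene33943 (NAC48-like, −2.34) and PH02Gene22243 (CTP synthase-like, −2.31).

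Root cap and ground tissue markers were lower in part. Of 8 root cap markers 6 fell and none rose, with a median of −1.92, and PH02Gene15627 itself had 12.06 and 16.98 CPM in PH02Gene04325-rich cells, 67.0 and 65.3 CPM in the other cells and 1632 and 1417 CPM in the root-cap-gate cells. Of 5 ground tissue markers 3 fell, with PH02Gene45651 at 52.3 and 80.3 CPM in members and 290.5 and 267 CPM in the other cells (−1.77 ± 0.14) and PH02Gene15920 at 564 and 791 CPM against 2054 and 2095 CPM (−1.32 ± 0.12). Of 3 genes listed as transition markers 1 was called lower and none higher, with a median of 0.67. PH02Gene11309, the gene of the transition gate, fell by 1.36 ± 0.11 (215 and 245 CPM in members, 736 and 713 CPM in the other cells). PH02Gene10382 had 428 and 299.8 CPM in members and 258 and 225 CPM in the other cells and was not called. PH02Gene02039 had 1251 and 1562 CPM in members and 1070 and 1096 CPM in the other cells and was not called either. Against germin-only cells 1 of the 8 root cap markers was lower (median −0.10) and none of the 5 ground tissue markers (median −0.55). Within cluster 6 it was 2 of 6 root cap markers tested (median −0.47) and 1 of 5 ground tissue markers (median −0.43). The study picked all of these markers on the same libraries.

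Epidermis genes were less clearly apart. Of 10 tested none was called, and 3 were lower with library size as the scale. The most abundant of them, PH02Gene29592, described as a translationally controlled tumor protein homolog, had 1226 and 2032 CPM in PH02Gene04325-rich cells and 3825 and 4125 CPM in the other cells (−0.997 ± 0.146, adjusted p = 1.9e-05). It stayed just under the 2-fold threshold, and with the replicate block it was called lower (−1.03). PH02Gene14566 had 235 and 401 CPM in PH02Gene04325-rich cells and 541 and 583 CPM in the other cells (−0.53 ± 0.15). Orthologs of GL2 and ANL2, homeodomain factors of the Arabidopsis epidermis, and 2 further epidermis genes had 0 UMIs in members, against 77 UMIs and 58 UMIs over all the other cells for GL2 and ANL2, levels too low for a difference to be detectable. By the gates, 14 and 18 members (9.03% and 14.9%) also passed the epidermis gate, against 19.5% and 21.9% of the other cells. The transition gate took 11 and 5 members (7.10% and 4.13%), against 34.9% and 33.4% of the other cells, and the root cap gate took 0 and 1. The 28 xylem and vascular orthologs had 21 genes tested, 1 higher and 2 lower, or none and 4 with library size as the scale. The counts of 1 and 2 lie near the shares over all genes tested, 5.98% higher and 9.95% lower.

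Compared with germin-only cells, which share the gate on PH02Gene38077, PH02Gene04325-rich cells were higher in 361 of 18918 genes tested (1.91%) and lower in 605 (3.2%). With library size as the scale the counts were 213 and 1164, so that 15.5% of the calls were higher in place of 37.4%. Cells that also passed another gate were left out of the germin-only group, while members that did so stayed in. The groups were therefore not matched in this respect. PH02Gene44580 (peroxidase 2-like) had 586 and 552 CPM in members and 190.3 and 189 CPM in germin-only cells (1.78 ± 0.11, adjusted p = 4.1e-13). This was the largest difference of a described gene with at least 50 CPM, followed by the germin-like gene PH02Gene49134 (2305 and 2098 CPM against 764 and 752 CPM, 1.74 ± 0.10) and the nudix hydrolase gene PH02Gene43520 (1.63 ± 0.13). Of the 11 phenylpropanoid genes 5 were higher and none lower, with a median of 0.97, against −0.06 over all genes. PH02Gene30511 was among them (1.45 ± 0.11), and PH02Gene30509 was not (0.76 ± 0.11).

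Several other lists are described against germin-only cells by the adjusted p without the 2-fold rule, with differences mainly under 2-fold. The share of all 18918 genes with an adjusted p under 0.05 is not given here. The counts below therefore do not single out a list. All 8 aromatic amino acid genes had an adjusted p under 0.05, with a median of 0.78 and 1 called higher. All 5 VIIa-2 kinase genes did so too, with a median of 0.83 and none called. The methionine and S-adenosylmethionine list had 7 of 8 genes under that p, a median of 0.80 and 3 called higher, with PH02Gene04324 at 546 and 403 CPM in members and 232 and 184 CPM in germin-only cells (1.39). The ribosomal protein list had all 4 genes under that p, with a median of −0.88 and 2 called lower. Of the 7 heat shock and wounding genes 4 were under that p and none was called (median −0.86). The 9 AUX/IAA genes had 1 gene under that p and none called (median −0.22). Among the lower genes was the plasma membrane calcium ATPase gene PH02Gene02229, with 24.1 and 31.4 CPM in members and 85.8 and 101 CPM in germin-only cells (−1.55 ± 0.19). Also lower was PH02Gene06911 of ribosomal protein L15, a marker of an undefined cluster of the study, with 53.6 and 51.0 CPM against 163 and 178 CPM (−1.51 ± 0.14). The PLT1 ortholog was lower than in germin-only cells as well, where it had 16.98 and 13.63 CPM (−2.51).

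Against transition-gate cells, PH02Gene04325-rich cells had 1599 of 18918 genes higher (8.45%) and 2962 lower (15.7%). PH02Gene10506 had 62.3 and 61.4 CPM in members and 3.55 and 2.27 CPM in transition-gate cells (4.54 ± 0.24, adjusted p = 7.6e-16). PH02Gene15279, of the HD-ZIP homeodomain family, had 201 and 185 CPM against 24.8 and 17.7 CPM (3.32 ± 0.14), and the SAUR71-like auxin response gene PH02Gene41953 had 358 and 376 CPM against 49.7 and 56.4 CPM (2.91 ± 0.12). The study had picked PH02Gene41953 on these libraries as falling along a path on which PH02Gene11309 rises. Its direction here is therefore not independent evidence. The AUX/IAA gene PH02Gene05831 was on the other side with 36.9 and 80.3 CPM in members and 743 and 810.1 CPM in transition-gate cells (−3.61 ± 0.17), and 7 of the 9 listed AUX/IAA genes fell. The phenylpropanoid list had the same counts as against all other cells, 10 higher and 1 lower, with a median of 1.90 against −0.13 over all genes.

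Against epidermis-gate cells 1416 of 18918 genes were higher (7.48%) and 2384 lower (12.6%), or 967 and 3333 with library size as the scale, which took the higher calls to 22.5% in place of 37.3%. PH02Gene30511 had the largest difference of a described gene, with 1321 and 1086 CPM in PH02Gene04325-rich cells and 158 and 143 CPM in epidermis-gate cells (3.23 ± 0.12, adjusted p = 4.5e-19), and PH02Gene04324 followed with 546 and 403 CPM against 58.4 and 79.4 CPM (2.97 ± 0.16). The phenylpropanoid list again had 10 genes higher and 1 lower, with a median of 2.21 against −0.11 over all genes, and 6 of the 8 aromatic amino acid genes rose. A bHLH factor gene, PH02Gene33993, had 15.4 and 5.23 CPM in members and 75.7 and 76.6 CPM in epidermis-gate cells (−2.67 ± 0.26), or −3.61 without replicate 1 and −2.01 without replicate 2. The PLT1 ortholog PH02Gene42801 was not called (log2 difference 0.03). The 4 comparisons share the same member cells, so their differences are not independent of each other.

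PH02Gene04325-rich cells did not fall into a cluster of their own. The kept cells formed 13 clusters when the marker genes were left out, and cluster 6, with 1808 cells, held 223 of the 276 members (80.8%), which made up 12.3% of that cluster. The clusters were numbered anew here, and this cluster 6 is not the Cluster 6 of the study, which was its epidermis. It had the highest level of the transition marker PH02Gene10382 among the clusters (569 CPM), and 254 CPM of the epidermis marker PH02Gene14566. Cluster 4 held 31, cluster 7 held 16, cluster 2 held 5 and cluster 10 held 1. The clusters rest on the 2000 most variable genes and share those genes with the levels that follow, which are therefore a description. The members inside cluster 6 (136 and 87 cells) had 1424 and 1307 CPM of PH02Gene30511, against 562 and 536 CPM in the members outside it (19 and 34 cells). The epidermis marker PH02Gene14566 ran the other way, with 123 and 226 CPM inside and 1063 and 837 CPM outside. PH02Gene30509 differed less, with 1367 and 1296 CPM inside and 1046 and 906 CPM outside. The gate thus took cells from more than 1 cluster.

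**Figure D4:**
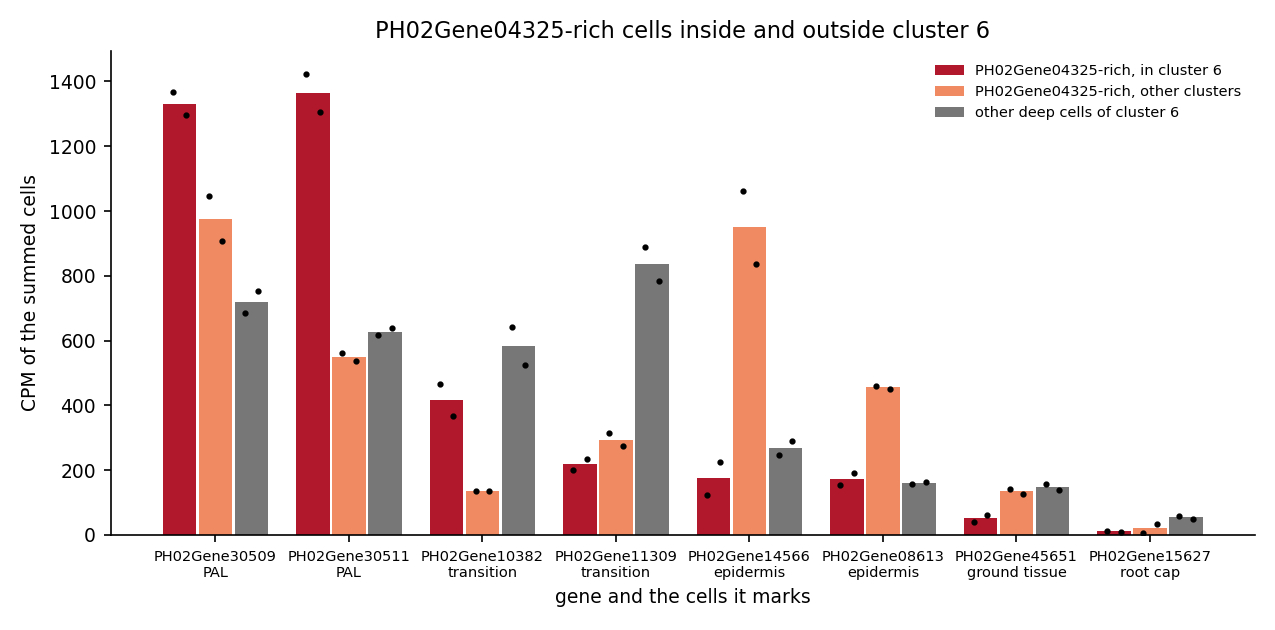
CPM of marker genes in PH02Gene04325-rich cells inside cluster 6, in those of other clusters and in the other cells of cluster 6 with at least 4000 UMIs. Bars are means of 2 replicates and dots the replicates. The members outside the cluster have 1063 and 837 CPM of PH02Gene14566, above both other groups.

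Set against the other deep cells of cluster 6 (730 and 622 cells), the members inside it were higher in 391 of 15672 genes (2.49%) and lower in 592 (3.78%). Of these, 322 and 372 were also called in the same direction against all other cells. PH02Gene30511 rose by 1.20 and PH02Gene30509 differed by 0.97, below the 2-fold threshold. Of the 11 phenylpropanoid genes 6 were higher and none lower, with a median of 1.15 against −0.02 over all genes, and 4 of the 8 methionine and S-adenosylmethionine genes were higher. Of the 15 described genes with the largest positive differences against all other cells, 10 were also called higher within the cluster, among them PH02Gene10506 (1.97) and PH02Gene13428 (1.01). The other 5 were below the 2-fold threshold there, namely PH02Gene43520 (0.64), PH02Gene31633 (0.55), PH02Gene50391 (0.75), PH02Gene43042 (0.87) and PH02Gene30127 (0.96). Of the 10 most negative, 4 were also called lower, and PH02Gene22243 was among the other 6 (−0.26). PH02Gene11309 was lower, with 202 and 233 CPM in members inside the cluster and 888 and 783 CPM in the other cells of the cluster (−1.87). These counts rest on a comparison added after the data were seen.

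Single members varied widely in genes other than those of the rule. PH02Gene30511 had a median of 1138 and 734 CPM per member cell, with the middle of the cells between 395 and 2152 CPM in replicate 1 and between 317 and 1680 CPM in replicate 2, and 8 and 11 members had no UMI of it. The median of the other cells was 0 in both replicates. PH02Gene46530 was more even, with a median of 2077 and 1930 CPM, quartiles of 1542 and 2684 CPM in replicate 1, and 2 and 0 members without a UMI, against 29.7% and 27.7% of the other cells without. PH02Gene10506 was sparse. No UMI was seen in 70.3% and 62.8% of members, against 95.2% and 94.1% of the other cells, so its difference rests on a minority of cells with a count. PH02Gene14566 had no UMI in 61.3% and 36.4% of members, against 42.3% and 33.8% of the other cells, and reached 3462 and 3337 CPM in single members. A cell without a UMI may still hold the transcript. After thinning to 4000 UMIs the gene was seen in 30.6% and 45.4% of members and in 47.0% and 52.8% of the other cells.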

How the data were processed

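Protoplasts of basal root tips from 2 biological replicates of 1 condition were measured by droplet single-cell RNA-seq. The authors made the deposited counts with Cell Ranger 5.0.1 and STAR, as the submitters' processing notes give, and deposited whole-number UMI counts of 50936 genes per barcode with no normalization. Replicate 1 held 7668 barcodes with 36419750 UMIs and replicate 2 held 7656 with 42126823 UMIs, and no further columns of samples were present (0). The genome build was not given in the sources used here, and no coordinates were used. Cells with more than 500 genes were kept. No mitochondrial filter or doublet caller was applied. Because 3′ reads are counted, levels of different genes are not compared.

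UMIs of the cells of a group were summed per library. The sums went into edgeR 4.0.16 under R 4.3.3, with filterByExpr, TMM factors and the quasi-likelihood test without a replicate block, and p-values were adjusted by Benjamini-Hochberg over all tested genes. Members against all other deep cells were fitted on 4 sums, and members against the gated groups on 12 sums. The common biological coefficient of variation was 0.058 and 0.066. The background cells were first meant to have at least 4000 CPM of PH02Gene45651, which was lowered to 1000 CPM after the data were seen. Clusters came from scanpy 1.11.5 (2000 variable genes, 20 principal components, 20 neighbours, resolution 0.8), with 3 marker genes taken out of the variable genes. Tables and figures were made in Python 3.11.15 (pandas 2.3.3, numpy 2.4.6, matplotlib 3.10.9, scipy 1.17.1).

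The members and the gene lists were chosen with earlier results of these data known. Named were the markers, the 15 largest and 10 most negative described genes with at least 50 CPM against the other cells, the 6 largest and 4 most negative against each gated group, up to 4 called genes and the most abundant uncalled gene per list, genes at 0, and 2 undescribed genes per direction. Further genes of a list were named as its examples after their values were seen. Descriptions, families and orthologs of 1393 genes, 1367 of them tested, came from the study's tables. The authors' own fold changes and p-values in those tables were not used.

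Same-numbered sums share a library, so the numbers pair them by construction. Their deviations correlated at 0.0133 to 0.117 (median 0.0553) over 15 pairs of groups, with 1 pair over 0.1. In simulated data for members against the other cells, the test recovered 189 of 200 genes changed 2-fold (94.5%) by the adjusted p alone with 4 false calls among 193, over 24745 genes, and 107 of them also passed the 2-fold rule. It recovered 200 of 200 genes changed 4-fold with 0 false calls, over 24184 genes. The changed genes all had over 20 CPM and every gene was given the common coefficient of variation. Recovery of rarer or more variable genes was therefore not tested. Alternatives were DESeq2 1.42.0 with its size factors, no filter on low counts, a replicate block, library size alone, other gates and depths, cells thinned to 4000 UMIs, each replicate left out and the comparison within the members' cluster.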

Additional observations from a re-analysis of the deposited data

How the results depend on the processing

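Counts of calls moved most with the scale and with the cells set against the members. With library size alone, chosen after seeing the data, 783 genes were higher and 3909 lower than in the other cells, and 213 higher and 1164 lower than in germin-only cells. Within the cluster that holds most members, also added after seeing the data, 983 genes were called, 391 higher and 592 lower, where fewer cells and fewer genes were tested. DESeq2 called 372 genes lower than germin-only cells in place of 605, and the cause was not tested. A stricter gate left 76 and 63 members and a looser gate took 221 and 210. No other count over all genes of a comparison moved by more than 1.5 times. Counts within lists are small and several did. Under the stricter gate 7 AUX/IAA, 4 ribosomal protein, 4 AP2/ERF, 2 glycolysis, 1 actin, 1 histone, 1 xylem and vascular, 1 epidermis and 1 germin-like genes were lower, in place of 4, 2, 2, 1, 3, 2, 2, 0 and 0, and 1 glycolysis gene and 0 autophagy genes were higher in place of 2 and 1. With thinned cells 4 ribosomal protein, 2 glycolysis, 1 histone, 1 xylem and vascular and 1 epidermis genes were lower, and no glycolysis, autophagy or xylem and vascular gene was higher. With germin-only cells left out 4 xylem and vascular genes were lower and 2 Tify and 2 autophagy genes were higher. DESeq2 gave 1 actin and 1 xylem and vascular gene lower. Without 1 replicate, 3237 to 3569 genes were called against the other cells and 765 to 819 against germin-only cells, with the lone sums assumed to vary like the others. The replicate block gave 3821 and 1017 calls, in place of 3871 and 966, and moved 1 named gene past the threshold, PH02Gene29592 at −1.03.

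The 163 named differences gave 1791 values under alternatives that keep both replicates, of which 1654 stayed on the same side of the threshold, 113 were no longer called and 21 became called. Of those 113, 62 belong to the comparison within the cluster. The direction turned in 3, all within the cluster, namely PH02Gene29317 (−0.0111), PH02Gene36478 (0.19) and PH02Gene29817 (0.0258). None of the 326 values with 1 replicate left out turned direction, but 33 moved by more than the SD of the replicates and 24, of 15 differences, by more than 1.5 times. Of those 15 the called ones described above are PH02Gene24787, given as a bound since it had 0 UMIs in members, PH02Gene42845 and PH02Gene33993. With 2 libraries, plants could not be told apart from libraries, and genes under about 20 CPM rest on few UMIs in the members' sums.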

Other observations

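Gene groups outside the comparisons above gave few calls in PH02Gene04325-rich cells. Over all genes tested against the other cells 5.98% were higher and 9.95% lower. Of 10 glycolysis genes 2 were higher and 1 was lower than in the other cells, or none and 2 with library size as the scale and with thinned cells. PH02Gene13004, an ortholog of the enolase gene ENO2, had 673 and 564 CPM in members and 367 and 342 CPM in the other cells (1.10 ± 0.11). Orthologs of GAPC-2, which encodes cytosolic glyceraldehyde 3-phosphate dehydrogenase, moved both ways, with PH02Gene37164 at 465 and 380.2 CPM in members and 256 and 250.0 CPM in the other cells (1.03 ± 0.11) and PH02Gene11332 at 20.8 and 18.3 CPM against 72.0 and 75.3 CPM (−1.62 ± 0.18). Of 6 autophagy genes 1 was higher, PH02Gene29317 of the ATG13 family, with 166 and 174 CPM in members and 104 and 93.9 CPM in the other cells (1.07 ± 0.11), and this call was lost with library size as the scale, under a stricter gate and with thinned cells. Of 13 actin cytoskeleton genes none was higher and 3 were lower (1 under a stricter gate and with DESeq2), among them PH02Gene03137, an ortholog of the actin-depolymerising factor gene ADF11, with 3.35 and 7.19 CPM in members and 21.1 and 22.6 CPM in the other cells (−1.75 ± 0.32). None of these groups had a called gene within the members' own cluster except actin, with 1 lower.

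PH02Gene35698, described as a naringenin 7-O-methyltransferase, an enzyme that makes the rice phytoalexin sakuranetin, was a marker of a cluster that the study left undefined. It had 462 and 439 CPM in PH02Gene04325-rich cells, 201 and 206 CPM in the other cells and 321 and 315 CPM in germin-only cells, and rose by 1.44 ± 0.10 against the other cells and by 1.40 within the cluster. PH02Gene45588, an ortholog of the xylem cysteine protease XCP2, had 52.3 and 64.0 CPM in members and 35.4 and 35.2 CPM in the other cells (1.01 ± 0.14), just past the 2-fold threshold, while PH02Gene13967, an ortholog of the secondary wall cellulose synthase CESA4, had 3.35 and 1.96 CPM in members and 14.6 and 14.5 CPM in the other cells (−2.16 ± 0.39).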
